A study of Mus musculus with 16 samples.

Results

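Rgs16, its antisense transcript Gm28513 and the serpin pseudogene Serpina4-ps1 were the 3 genes of mouse liver with the largest falls on log2(TPM + 1) under the glucagon receptor agonist G108 outside the major urinary protein (Mup) family, among the 11839 genes compared of 55487 listed. That scale understates the change of low genes, and Mir290b, for example, went from a mean of 3.43 TPM with vehicle to being listed at 0 with G108 on HP. The 3 genes were chosen by those falls, so their levels under G108 are a description of these mice and carry no test. All 3 had a mean of at least 1 TPM (reads divided by exon length and scaled to the same total in every library) over the 16 libraries and were among the 11839 genes compared. The study asked how dietary protein bears on the response to a low dose of G108, a long-acting glucagon analogue.

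Livers came from 16 male obese C57BL6/J mice in 4 groups of 4, and each mouse gave 1 library. All mice had eaten a 60 kcal% fat diet for 8 weeks from 10 weeks of age, and were then moved to high-fat diets that held standard (SP) or high protein (HP). They were injected under the skin once a day for 22 days with vehicle or with G108 at 2.5 nmol/kg, and were culled on day 25 after a fast of 4 h. These ages and days are those of the sample records, and the methods of the study give others. The groups are named by treatment and diet, from vehicle SP to G108 HP. The obesity of this model is made by diet, only males were used, and no lean mice were sequenced here.

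RGS16 belongs to the regulators of G protein signalling. These proteins speed the hydrolysis of GTP by Gi and Gq alpha subunits and so shorten the signal of receptors that use them. In rodent liver Rgs16 is known as a gene whose mRNA follows feeding, glucose and time of day, and as a target of the carbohydrate response factor ChREBP. Serpins are inhibitors of serine proteases, and hepatocytes secrete many of them. Serpina4-ps1 is annotated as a pseudogene, a copy that no longer encodes the whole protein. Glucagon acts on hepatocytes through a receptor coupled to Gs and raises cAMP.

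In the GENCODE annotation of GRCm38, Rgs16 (ENSMUSG00000026475) lies on the forward strand at chr1:153740349-153745468, with 5 exons and 2339 exon bases. Gm28513 (ENSMUSG00000099568) lies on the reverse strand at chr1:153743552-153749324, with exons of 295 and 318 bases. Its exon 2 overlaps exon 5 of Rgs16 by 236 bases, and 219 of these are coding bases of Rgs16, out of 603. The overlap leaves 377 exon bases of Gm28513 and 2103 of Rgs16 outside it. Reads from the shared bases can be told apart only by strand, and the strand setting of the counting is not given in the sources used here. Of the 31-base sequences of Gm28513, 36.0% occur in Rgs16 on the opposite strand. Its longest open frame is 18 codons, against 201 for Rgs16.

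Both parts of Gm28513 are shown from GRCm38, because the values of the pair have to be read against them. The first is its own exon 1, at chr1:153749030-153749324 on the reverse strand, which shares no exon base with Rgs16. The second is the coding stretch of Rgs16 exon 5 that lies opposite Gm28513 exon 2, at chr1:153743634-153743852 on the forward strand.
Gm28513 exon 1: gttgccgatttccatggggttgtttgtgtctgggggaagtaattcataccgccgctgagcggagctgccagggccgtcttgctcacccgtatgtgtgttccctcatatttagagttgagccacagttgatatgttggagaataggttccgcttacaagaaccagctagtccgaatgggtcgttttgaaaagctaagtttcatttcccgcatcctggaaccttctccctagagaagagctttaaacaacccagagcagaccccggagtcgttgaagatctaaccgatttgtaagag
Rgs16 exon 5, shared coding part: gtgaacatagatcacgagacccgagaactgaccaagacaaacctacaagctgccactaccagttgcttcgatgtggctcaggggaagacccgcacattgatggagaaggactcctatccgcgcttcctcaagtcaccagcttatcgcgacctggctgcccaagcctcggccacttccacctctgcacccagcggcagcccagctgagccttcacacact

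Serpina4-ps1 (ENSMUSG00000092075) is annotated as an unprocessed pseudogene on the forward strand at chr12:104080649-104086724, with 4 exons and 1287 exon bases. Its longest open frame holds 128 codons and lies in 1 exon. Of the genes of the same cluster that encode serpins, only Serpina1a, Serpina3k, Serpina5, Serpina11 and Serpina12 were measured. Their frames ran from 405 codons (Serpina5) to 436 (Serpina1a). The bases around the end of the longest frame of Serpina4-ps1, at chr12:104080987-104081109 of GRCm38, are shown with the stop codon in capitals. None of its 1257 sequences of 31 bases occurs in another gene of the annotation, the serpins that encode protein included.
Serpina4-ps1, end of the longest frame: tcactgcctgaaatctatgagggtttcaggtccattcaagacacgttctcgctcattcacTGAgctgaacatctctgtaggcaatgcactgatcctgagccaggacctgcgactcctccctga

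The 250 bases before the start of Rgs16 in RefSeq (GRCm38.p6, chr1:153740103-153740352, forward strand) are shown because the transcript they start is the one with a known control by feeding, and Rgs16 is the member that had a window. Searched on both strands, these 250 bases held no CACGTG (E-box), no TGACG (the core of a cAMP response element) and no TGTTTAC (forkhead site). The rest of the window was not searched. In the same 250-base part, these letters occur in 6.0%, 17.8% and 3.2% of the 32851 promoter windows. The bases shown are 66.4% G or C, and the median of that part over all windows is 52.4%.
Rgs16 promoter: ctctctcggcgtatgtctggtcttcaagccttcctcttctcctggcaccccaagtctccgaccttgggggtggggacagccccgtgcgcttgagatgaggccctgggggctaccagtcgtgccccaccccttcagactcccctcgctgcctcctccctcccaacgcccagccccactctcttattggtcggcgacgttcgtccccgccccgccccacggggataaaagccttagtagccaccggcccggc

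TPM values stand for whole reads here, because each value times the exon length lies on steps of 1 read. Recovered totals were 33.38 to 45.03 M reads in vehicle SP, 34.48 to 44.12 in vehicle HP, 27.79 to 35.85 in G108 SP and 30.44 to 36.51 in G108 HP. On TPM, the log2 difference of the median gene was 0.60 between G108 and vehicle on SP and 0.09 on HP. Values are therefore also given with the TPM rescaled by medians of ratios, so that the typical gene is level across libraries. The hepatocyte markers Alb, Apoa1, Apob, Ttr and Fgb summed to 13400 to 35100 TPM, and T cell markers to at most 1.46 TPM. In whole tissue, fewer cells of a type and less RNA per cell cannot be told apart.

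Rgs16 was high in vehicle mice on SP, at 13.2, 43.7, 36.0 and 18.4 TPM in mice 1 to 4. With vehicle on HP it was at 7.54, 6.79, 10.1 and 31.2 TPM. Mouse 4 of vehicle HP stood within the range of vehicle SP, while the other 3 mice lay below it. With G108 on SP the values were 7.004, 0.874, 1.65 and 1.16 TPM, from 356, 42, 80 and 65 reads. Mouse 1 held several times more Rgs16 than the other 3 mice of its group, and overlapped the lower mice of vehicle HP. With G108 on HP the values were 0.789, 0.505, 0.322 and 0.603 TPM, from 52, 31, 22 and 31 reads. The exact 95% Poisson interval of the lowest of these, 0.322 TPM, was 0.202 to 0.488 TPM, for counting error only.

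Group means of Rgs16 were 27.8 ± 14.4 TPM in vehicle SP, 13.9 ± 11.6 in vehicle HP, 2.67 ± 2.91 in G108 SP and 0.555 ± 0.195 in G108 HP (SD, n = 4). Every G108 mouse lay below every vehicle mouse of its diet. Among all genes tested, 0.355% had all G108 mice below all vehicle mice on SP and 1.21% on HP. Nothing is read from these shares for genes that were chosen by their falls. Vehicle exceeded G108 by 10.4-fold in the ratio of means on SP and by 25.1-fold on HP. Without mouse 1 of G108 SP the ratio on SP was 22.7-fold, and without mouse 4 of vehicle HP the ratio on HP was 14.7-fold. On log2(TPM + 1), which understates the change of low genes, Rgs16 differed by -3.09 (SE 0.49) on SP and -3.01 (SE 0.49) on HP. After median-of-ratios scaling these differences were -3.65 and -3.13.

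Gm28513 was at 10.4, 40.1, 34.8 and 14.9 TPM in mice 1 to 4 of vehicle SP, and at 5.11, 6.70, 10.6 and 30.0 TPM in vehicle HP. The order of the mice within both vehicle groups was nearly that of Rgs16. With G108 on SP it was at 5.70, 0.794, 2.36 and 1.02 TPM, and on HP at 0.637, 0.311, 0.168 and 0.371 TPM. The G108 HP values rest on 11, 5, 3 and 5 reads, and the interval of the lowest, 0.168 TPM, ran from 0.0345 to 0.490 TPM. Group means were 25.1 ± 14.6 and 13.1 ± 11.5 TPM with vehicle on SP and HP, and 2.47 ± 2.27 and 0.371 ± 0.196 TPM with G108 (SD, n = 4). The groups did not overlap on either diet. The ratio of means was 10.1-fold on SP, and 18.0-fold without mouse 1 of G108 SP. On HP it was 35.2-fold, and 20.1-fold without mouse 4 of vehicle HP. The log2 differences were -2.92 (SE 0.51) on SP and -3.07 (SE 0.51) on HP.

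Serpina4-ps1 was the most abundant of the 3 genes, at 104, 115, 183 and 97.4 TPM in vehicle SP. In vehicle HP it was at 42.1, 81.8, 47.4 and 108.6 TPM, so that mouse 4 of that diet again overlapped vehicle SP. With G108 on SP the values were 4.93, 4.12, 16.5 and 26.8 TPM. Mice 3 and 4 were the high ones here, and mouse 1, which stood highest for Rgs16, was near the lowest. With G108 on HP they were 5.87, 8.89, 5.35 and 0.883 TPM, the last from 25 reads with an interval of 0.572 to 1.30 TPM. Group means were 125.1 ± 39.5 and 70.0 ± 31.2 TPM with vehicle on SP and HP, and 13.1 ± 10.7 and 5.25 ± 3.30 TPM with G108 (SD, n = 4). All G108 mice lay below all vehicle mice of their diet. The ratio of means was 9.57-fold on SP, and 14.7-fold without mouse 4 of G108 SP, and it was 13.3-fold on HP. The log2 differences were -3.47 (SE 0.55) and -3.63 (SE 0.55), and -4.19 and -3.72 after median-of-ratios scaling.

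**Figure D1:**
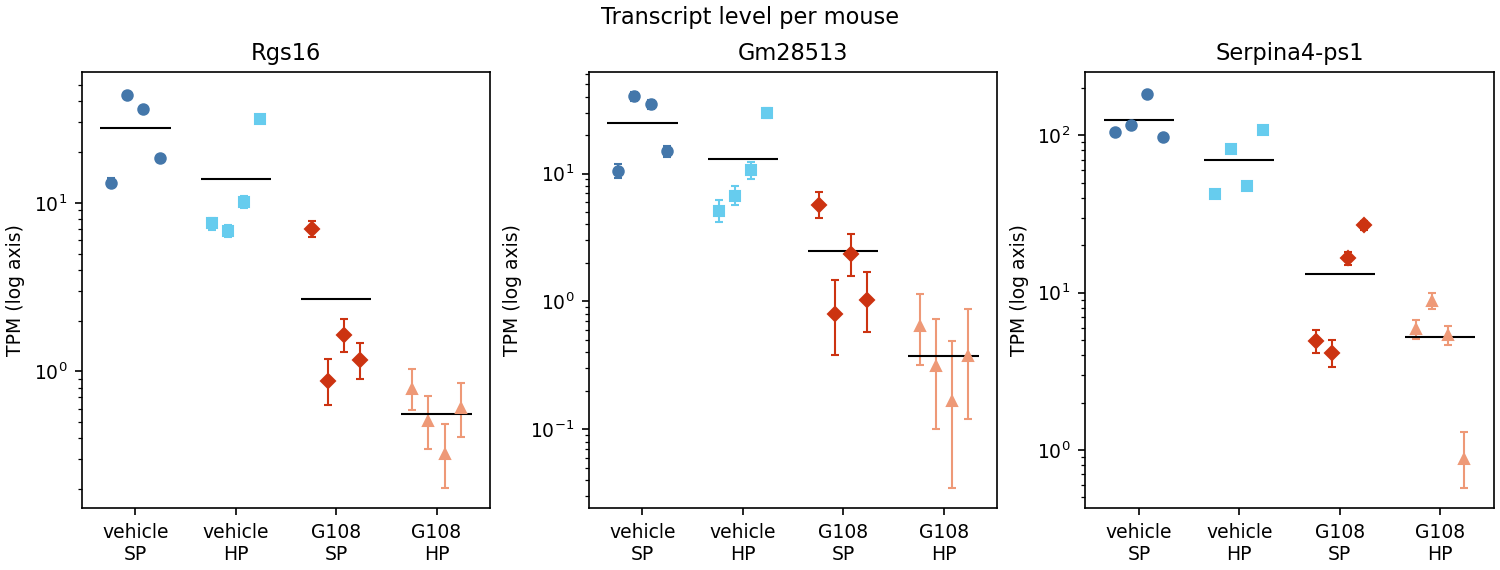
Transcript level (TPM, log axis) of Rgs16, Gm28513 and Serpina4-ps1 in each of 16 mice, by group, where points are mice 1 to 4 from left to right, black lines are group means and bars are exact 95% Poisson intervals for counting error only. Rgs16 in mouse 1 of G108 SP, at 7.004 TPM, stands above its group, and Serpina4-ps1 in mouse 4 of G108 HP, at 0.883 TPM, stands below it.

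For each of the 3 genes the group means went down from vehicle SP through vehicle HP and G108 SP to G108 HP. Vehicle SP and vehicle HP overlapped for each of them. Vehicle HP and G108 SP, which differ in both treatment and diet, overlapped for Rgs16 and Gm28513 through mouse 1 of G108 SP, and were apart for Serpina4-ps1. G108 SP and G108 HP were apart for Rgs16 and Gm28513 and overlapped for Serpina4-ps1.

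In the order of falls on log2(TPM + 1) on SP, Gm28513 was the last of the 3, at -2.92, and the next gene was Gm13773, at -2.50. On HP the last was Rgs16, at -3.01, and the next was the microRNA gene Mir291b, at -2.44. The same 3 genes led both orders after median-of-ratios scaling. Of all genes tested, 0.608% were called lower on SP and 77.0% higher by limma on TPM (adjusted p under 0.05), and after median-of-ratios scaling 1.39% were called lower and 1.33% higher. On HP the shares were 0.296% lower and 0.819% higher on TPM, and 0.583% lower and 0.642% higher after scaling.

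The difference between the fall on HP and the fall on SP was 0.09 (SE 0.69) for Rgs16, -0.15 (SE 0.72) for Gm28513 and -0.16 (SE 0.78) for Serpina4-ps1, on log2(TPM + 1). It was made of the contrasts that chose the genes and was not tested. After scaling it was 0.52, 0.30 and 0.48. The standard errors leave room for a difference of more than 1 log2 unit in either direction: for Rgs16 the 95% interval ran from -1.38 to 1.55.

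**Figure D2:**
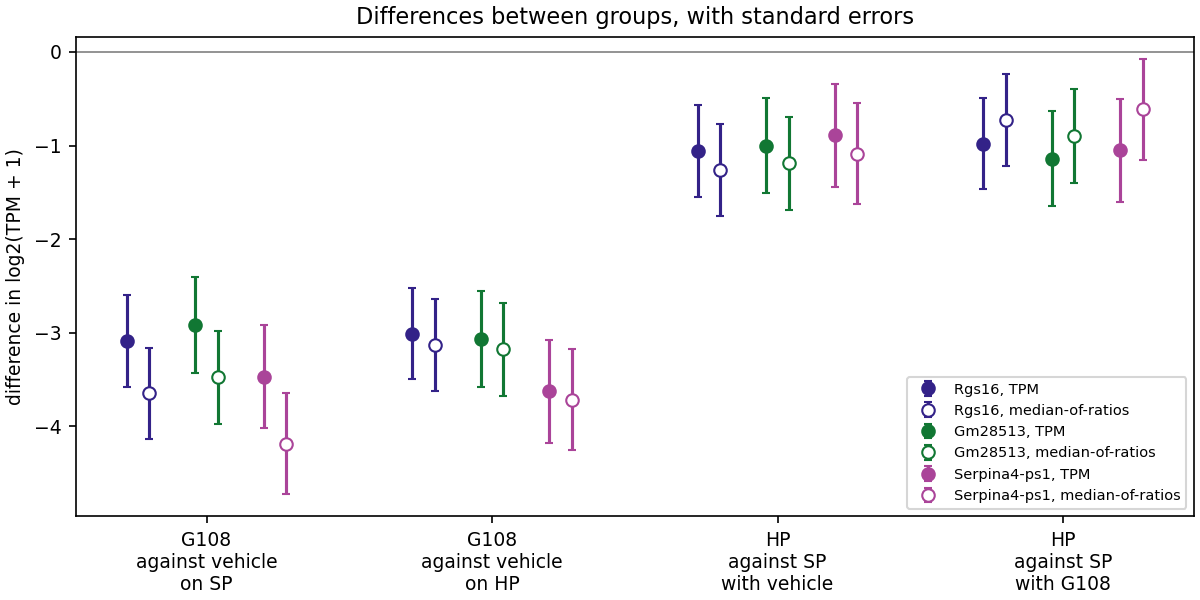
Difference in log2(TPM + 1) of Rgs16, Gm28513 and Serpina4-ps1 in 4 comparisons of groups, with bars of 1 standard error, on TPM (filled) and after median-of-ratios scaling (open). The G108 differences lie between -4.19 and -2.92 and are descriptions, while the diet differences lie between -1.26 and -0.61.

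Dietary protein was the comparison that the choice of genes did not use, although it rests on the same mice. All 3 genes had lower means on HP than on SP, and none of these differences passed the test. With vehicle, the log2 difference of HP from SP was -1.06 for Rgs16 (95% interval -2.10 to -0.02, limma adjusted p = 0.727). It was -1.0 for Gm28513 (-2.08 to 0.09, limma adjusted p = 0.727) and -0.89 for Serpina4-ps1 (-2.06 to 0.28, limma adjusted p = 0.727). Each interval reaches from a fall of more than 2 log2 units to no difference or nearly none.

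With G108 the differences of HP from SP were of similar size. Rgs16 differed by -0.98 (-2.02 to 0.06, limma adjusted p = 0.125), Gm28513 by -1.14 (-2.23 to -0.06, limma adjusted p = 0.102) and Serpina4-ps1 by -1.05 (-2.21 to 0.12, limma adjusted p = 0.137). For Rgs16 and Gm28513 every G108 HP mouse lay below every G108 SP mouse, but so did 20.5% of all genes tested, while the share with vehicle was 0.135%. The log2 difference of the median gene was -0.35 in this comparison. After median-of-ratios scaling the adjusted p was 0.858 for each of the 3 genes. Of all genes, 0.0% were called lower on HP with vehicle and 0.0% with G108 by limma, and 374 and 5325 genes had an unadjusted p under 0.05. With G108 that share hung on single mice. Without mouse 4 of G108 HP 5016 genes were called lower, without mouse 1 of G108 SP 2990, and without mouse 4 of vehicle SP 1724. None of the 3 genes was among them. With any other mouse left out, at most 1 gene was called lower. In the ratio of means, SP exceeded HP by 2.00-fold for Rgs16 with vehicle and 3.41-fold without mouse 4 of vehicle HP, and by 4.82-fold with G108 and 2.21-fold without mouse 1 of G108 SP. The ratio of Gm28513 moved with the same mice, from 1.91-fold to 3.36-fold with vehicle and from 6.65-fold to 3.75-fold with G108. That of Serpina4-ps1 with G108 went from 2.49-fold to 1.62-fold without mouse 4 of G108 SP.

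Reads of Gm28513 stood in a like ratio to those of Rgs16 in most mice. For each 100 reads of Rgs16, Gm28513 had 20.7 to 25.3 reads in vehicle SP, 17.8 to 27.3 in vehicle HP, 21.3 to 37.5 in G108 SP and 13.6 to 21.2 in G108 HP. Over the reads of a group the ratio was 23.3, 24.5, 24.1 and 17.6. The last of these came from 24 reads of Gm28513 and 136 of Rgs16. Per exon base, Gm28513 reads stood at 0.890 of those of Rgs16 in vehicle SP and 0.673 in G108 HP. If reads from the shared bases were left out of both genes by the counting, the ratio per base outside the overlap would be 1.30 in vehicle SP and 0.984 in G108 HP. Outside the overlap, the rest of Gm28513 exon 2 lies in the intron between exons 4 and 5 of Rgs16. Without a known strand setting, reads of Rgs16 and of its antisense partner cannot be told apart in the shared bases. Nor can unspliced reads of Rgs16 in that intron. The values of Gm28513 are therefore uncertain as a measure of its own transcript.

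**Figure D3:**
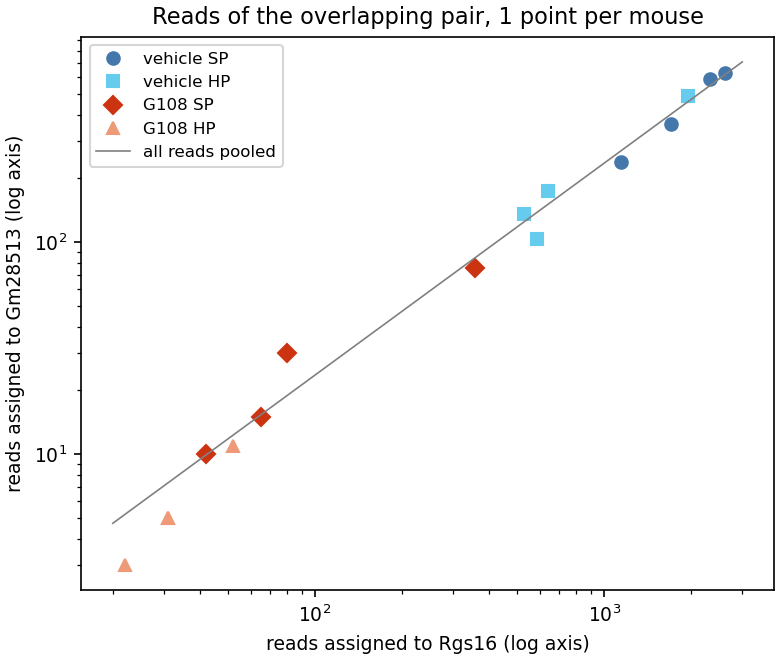
Reads assigned to Gm28513 against reads assigned to Rgs16, both on log axes, with 1 point per mouse and a line at the ratio of all reads pooled. The points run along the line from 2617 reads of Rgs16 with 629 of Gm28513 to 22 with 3, and mouse 3 of G108 SP, with 37.5 per 100, lies above it.

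Serpina4-ps1 was low in the same groups as Rgs16, but its order of mice within groups was another. Over the 16 libraries, Pearson's r after median-of-ratios scaling was 0.996 between Rgs16 and Gm28513 and 0.884 between Rgs16 and Serpina4-ps1. On deviations from the group means these were 0.972 and 0.038. The points share the groups that chose the genes, so the values over 16 libraries are a description, and those on deviations rest on 4 mice a group. In G108 SP, mouse 1 was high for Rgs16 and low for Serpina4-ps1, and mouse 4 was the reverse. In vehicle HP, by contrast, mouse 4 was the highest for both, at 31.2 TPM of Rgs16 and 108.6 TPM of Serpina4-ps1.

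**Figure D4:**
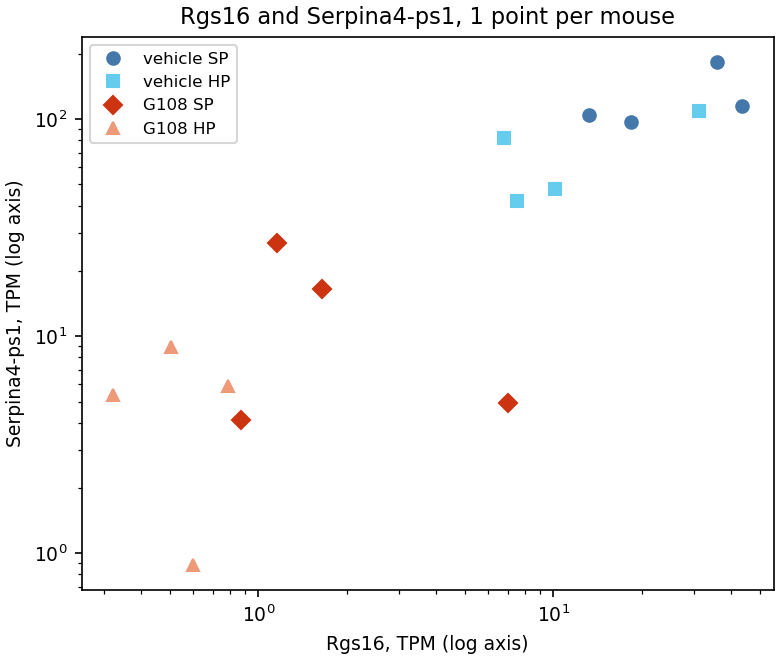
Serpina4-ps1 against Rgs16 (TPM, both axes log) with 1 point per mouse and 1 symbol per group. Vehicle and G108 mice form separate clouds, and within the G108 mice the highest Rgs16 (7.004 TPM) goes with 4.93 TPM of Serpina4-ps1 and the highest Serpina4-ps1 (26.8 TPM) with 1.16 TPM of Rgs16.

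The genes most alike to Rgs16 over the 16 libraries were Gm28513, Hsd17b2 (r = 0.966), a steroid dehydrogenase, the long noncoding RNA Gm31583 (0.962), Dlc1 (0.942) and Rnf144b (0.942), by r on scaled log2 values. Gm31583 was at 4.03 to 7.10 TPM in vehicle SP, 1.83 to 10.9 in vehicle HP, 0.352 to 1.58 in G108 SP and 0.298 to 0.758 in G108 HP, with mouse 4 of vehicle HP again the highest. On deviations from the group means, over the same 16 libraries, they were Gm28513, Pus3 (0.844), the hepatic lipase gene Lipc (0.827), Txnip (0.821) and Gm31583 (0.805). Txnip, a known target of ChREBP, was at 18.0 TPM in mouse 4 of vehicle HP and at 7.50, 10.4 and 10.0 TPM in mice 1 to 3, so that it shared the high mouse of Rgs16. Its own difference between G108 and vehicle was 0.08 (SE 0.25) on SP and -0.54 (SE 0.25) on HP on TPM. After scaling it was -0.62 (SE 0.20) and -0.65 (SE 0.20), so that its direction on SP turned.

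The genes most alike to Serpina4-ps1 over the 16 libraries were Palmd (r = 0.925), the oxidative stress gene Osgin1 (0.923), the apoptotic protease gene Casp8 (0.917), Cnmd (0.912) and Ginm1 (0.909). Cnmd, which encodes chondromodulin, was at 2.31 to 3.26 TPM in vehicle SP, 2.02 to 2.21 in vehicle HP, 1.11 to 1.46 in G108 SP and 0.913 to 1.37 in G108 HP. Its log2 difference was -0.74 on SP and -0.58 on HP, given without a test because it was chosen by its likeness to Serpina4-ps1. On deviations the genes were Mfsd14a (0.838), the cholesterol exporter gene Abca1 (0.823), Slc17a2 (0.806), Dcaf1 (0.780) and Nudt7 (0.780). No gene was in both lists of Serpina4-ps1, and Gm28513 and Gm31583 were in both of Rgs16. At most 2 of the 5 genes of a list were kept on unscaled TPM or with Spearman's rho.

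Rgs16 had the highest level of the RGS genes in both vehicle groups, and Rgs5 in both G108 groups. Of the other 20 genes listed for the family, Rgs5 had a mean of at least 1 TPM, 16 were detected below it and Rgs13, Rgs21 and Rgs22 were listed at 0 in every library. Rgs5, which is known from pericytes and stellate cells, was at 1.98 ± 1.02 TPM in vehicle SP and 4.02 ± 1.09 in G108 SP (SD, n = 4). It was called higher on SP by limma (log2 0.79, adjusted p = 0.00668), but not after scaling (0.24, adjusted p = 0.429), and on HP it differed by -0.10, at 3.37 ± 0.336 TPM with vehicle and 3.15 ± 0.925 with G108. Rgs8, next to Rgs16 on the chromosome, had a mean of 0.00119 TPM and Rgsl1 0.00796 TPM. The transcripts of Rgs2 and Rgs3, which act on Gq and Gi, had means of 0.438 and 0.721 TPM.

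Among the G protein subunits, on which RGS proteins act, 13 of 22 genes listed were tested, and none was called lower on either diet. On SP 12 were called higher by limma on TPM, where 77.0% of all genes were. The median log2 was 0.76 beside 0.60 over all genes. After scaling 0 were called, and 5 had an unadjusted limma p under 0.05, beside 2098 of all 11839 genes tested. Gnai3, an inhibitory alpha subunit, was at 10.7 ± 3.26 TPM in vehicle SP and 25.4 ± 7.06 in G108 SP (SD, n = 4; log2 1.18, limma adjusted p = 0.00194, and 0.153 after scaling). Gna13 and Gna11 had log2 differences of 1.04 and 0.85 on TPM, and of 0.50 and 0.15 after scaling. Gnas encodes the alpha subunit of Gs, to which the glucagon receptor is coupled. It differed by 0.38 on TPM (limma adjusted p = 0.0166) and by -0.37 after scaling (adjusted p = 0.0695). On HP 0 of 13 were called by limma, and 0 had an unadjusted p under 0.05, beside 1410 of all 11839 genes.

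Of the carbohydrate response genes, a program that Rgs16 is known to follow, 1 was called lower on SP and none on HP. Of 20 genes listed, 19 were tested. On SP 9 were called higher and 1 lower by limma on TPM, where 77.0% and 0.608% of all genes were, with a median of 0.56 beside 0.60 over all genes. There were 1 higher and 1 lower after scaling, with a median of -0.18.

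The gene that rose under both scalings was G6pc, the glucose-6-phosphatase that releases glucose from the liver. It was at 28.0 to 63.5 TPM in vehicle SP and 86.6 to 209.0 TPM in G108 SP. Its log2 difference was 1.86 (limma adjusted p = 0.000831), and 1.09 after scaling (adjusted p = 0.0296). On HP it differed by 1.01 (adjusted p = 0.191). Acly, ATP citrate lyase, was called higher on TPM (1.28, limma adjusted p = 0.0163) and not after scaling (0.52, adjusted p = 0.475). Mlxipl, which encodes ChREBP, differed by -0.05 on TPM and -0.82 after scaling (limma adjusted p = 0.811 and 0.148). On HP 0 of the 19 genes were called by limma, and 2 had an unadjusted p under 0.05, beside 1410 of all 11839 genes.

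The clock genes, listed because Rgs16 is known to cycle in liver, gave no call of a fall on either diet. Of 19 listed, 16 were tested. On SP 11 were called higher by limma on TPM, where 77.0% of all genes were, with a median of 0.59 beside 0.60 over all genes, and 1 was after scaling, with a median of -0.04. That gene was Rora, an activator of the clock loop, with log2 0.96 (limma adjusted p = 0.000462) and 0.41 after scaling (adjusted p = 0.0454). Bhlhe40, a repressor, was called on TPM only (1.26, limma adjusted p = 0.00217, and 0.242 after scaling). Per1, a repressor of the loop that is also known to answer cAMP, was at 5.75 to 8.77 TPM in vehicle HP and 11.6 to 16 TPM in G108 HP. It was the 1 clock gene called on HP (log2 0.89, limma adjusted p = 0.02), and its adjusted p was 0.0941 after scaling. That call was also lost without any 1 of vehicle HP mice 3 or 4 or G108 HP mice 2, 3 or 4, and over all alternatives the adjusted p ran from 0.0116 to 0.0955. On SP its log2 difference was 1.11 on TPM (limma adjusted p = 0.0004) and 0.40 after scaling (adjusted p = 0.324).

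No other gene around Rgs16 was called lower. Of 30 other genes within 500 kb, 5 had a mean of at least 1 TPM. On SP Glul, glutamine synthetase, and Dhx9, a helicase gene, were called higher by limma on TPM (log2 0.61 and 0.69, adjusted p = 0.0412 and 0.0106), where 77.0% of all genes were, and 0 were called after scaling. On HP 0 were called, and 0 had an unadjusted p under 0.05 by limma, beside 1410 of all 11839 genes. Mir8114 and Glul share 93 bases and lie on the same strand, so strand cannot tell their reads apart there. The 3 with the highest means were Glul, Mir8114 and Teddm2. Their differences on HP were -0.20, -0.58 and -0.49.

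Around Serpina4-ps1, 1 gene was called lower on both diets by limma, on TPM and after scaling, and it was the nearest tested one. Over all genes, 0.608% were called lower on SP and 0.296% on HP on TPM. Other neighbours had negative differences on both diets without a call, such as Serpina3l-ps (-1.22 and -0.91 on TPM). Of 46 other genes within 500 kb, 23 were tested, most of them serpin genes or their pseudogenes. Serpina12 (chr12:104028769-104044443, reverse strand), which encodes the secreted inhibitor vaspin, lies 36206 bases away. It was at 12.1, 23.9, 15.4 and 7.88 TPM in vehicle SP and 6.17, 5.30, 6.39 and 9.39 TPM in G108 SP, where mouse 4 overlapped vehicle SP. On HP it was at 6.30, 7.93, 8.22 and 10.3 TPM with vehicle and 3.15, 3.53, 1.42 and 2.49 TPM with G108, with no overlap. Of all genes tested, 1.21% had all G108 mice below all vehicle mice on HP. The log2 difference of Serpina12 was -0.95 on SP (SE 0.27, limma adjusted p = 0.00692) and -1.36 on HP (SE 0.27, limma adjusted p = 0.0254). After scaling these were -1.63 and -1.47 (adjusted p = 0.00124 and 0.0107). The call on SP held in all 23 alternatives, and that on HP in 17 of 23, being lost without any 1 of mice 3 or 4 of vehicle HP or of G108 HP, with a replicate block and without a filter on low values (adjusted p up to 0.114). Like the 3 members it had lower means on HP than on SP, with differences of -0.70 with vehicle and -1.11 with G108 that were not called (limma adjusted p = 0.727 and 0.0721).

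No other tested gene of the serpin cluster was called lower on either diet on TPM or after scaling. Serpina11 differed by 0.29 on SP and -0.38 on HP on TPM (limma adjusted p = 0.15 and 0.425), and by -0.46 and -0.50 after scaling (adjusted p = 0.0514 and 0.061). With voom on recovered reads it was called lower on SP (-0.48, adjusted p = 0.0472). On SP 11 genes were called higher by limma on TPM, where 77.0% of all genes were, led by the pseudogene Gm8893 (log2 1.58, adjusted p = 0.00736) and Serpina1d (1.48, adjusted p = 0.00679), and 0 after scaling. Serpina1c, one of the alpha-1-antitrypsin genes and the most abundant, was at 9560 ± 3900 TPM in vehicle SP and 20400 ± 4170 in G108 SP (SD, n = 4; log2 1.19 on TPM and 0.41 after scaling). The Serpina1 genes are near copies of each other and their reads may be split between them, so their single values are uncertain. On HP 0 were called higher by limma. After scaling, the 23 genes had log2 differences from -1.63 to 1.02 on SP (median 0.16) and from -1.47 to 0.37 on HP (median -0.13), with Serpina12 the lowest on both, whereas Serpina4-ps1 was at -4.19 and -3.72.

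**Figure D5:**
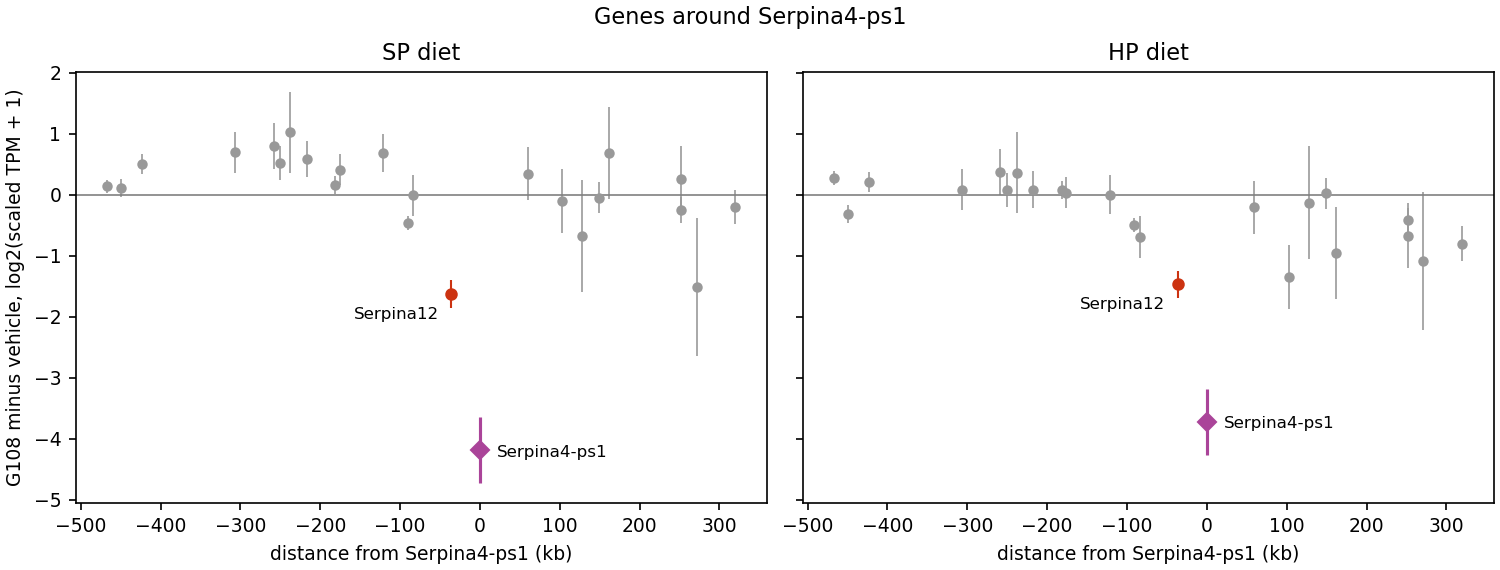
Difference between G108 and vehicle in log2(scaled TPM + 1) for Serpina4-ps1 (diamond) and 23 genes within 500 kb of it, by distance in kb, on the SP and HP diets, with bars of 1 standard error and genes called by limma in red. Serpina12, at -1.63 and -1.47, is the called neighbour, and Serpina4-ps1 lies below it at -4.19 and -3.72.

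Markers of other liver cells were counted beside these results. Summed markers of liver endothelial cells were 14.2 to 22.5 TPM in vehicle SP, 16.1 to 23.2 in vehicle HP, 19.2 to 28.7 in G108 SP and 19.2 to 22.4 in G108 HP. On TPM, limma called 5 of 5 tested hepatocyte, 2 of 6 endothelial, 2 of 3 stellate and 0 of 5 Kupffer cell markers higher on SP. The share over all genes there was 77.0%. None of these markers was called on HP. After scaling, none of the 5 tested hepatocyte, 6 endothelial, 3 stellate or 5 Kupffer cell markers was called by limma on either diet. Kupffer cell markers ranged from 27.3 to 95.6 TPM in G108 SP and from 28.3 to 46.0 TPM in vehicle SP. T cell and B cell markers had no tested gene, and B cell markers summed to at most 2.99 TPM in the first 3 groups and 6.24 TPM in G108 HP. The part of cell composition in the levels of the 3 genes was not tested.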

How the data were processed

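RNA from the livers of 16 mice was sequenced, 1 library per mouse, 4 per group. Reads were checked with FastQC 0.11.8, aligned to GRCm38 with HISAT2 2.0.5 and counted per gene with featureCounts. The authors deposited TPM, which are reads divided by exon length and scaled to the same total in every library. DESeq2 results of the study were not used. Groups came from the sample records.

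The 3 members and all lists were chosen with earlier results of these data known. Exon lengths and positions came from the GENCODE M21 annotation of GRCm38 (55141 of 55487 identifiers matched), and promoter sequence from RefSeq. Of the hepatocyte markers, Tf matched no symbol. Reads were recovered where TPM times exon length lay on steps of 1 read: 98.8% of 138863 low values were within 0.02 of a whole read. Recovered depth limits precision by counting error, given as exact 95% Poisson intervals.

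The fit took genes averaging 1 TPM or more, on log2(TPM + 1), in limma 3.58.1 under R 4.3.3, with 1 mean per group over 16 libraries, an intensity trend and Benjamini-Hochberg adjustment, at an adjusted p under 0.05. The p-values measure the spread between these mice. Tested on simulated data for G108 against vehicle on SP (11839 genes), the model recovered 100% of 50 genes changed by a log2 of -3 and 58% of 50 changed by -1. It also called 5 unchanged genes. The changed genes were drawn from those with a mean log2(TPM + 1) above 3. Simulated noise was independent between genes, without the shift of whole libraries seen in the real data. These shares are therefore not the power for the 3 members. Named genes are the members, up to 3 called genes per list and diet (first those also called after median-of-ratios scaling), up to 3 neighbours, the 5 genes most alike per member and measure, the RGS genes of the Rgs16 locus and the most abundant Serpina neighbours. Gnas, Mlxipl, Serpina11, Mir290b, Rgs2, Rgs3 and the genes next in the order of falls were named after their values were seen. Alternatives were a pseudocount of 0.1, no filter, a minimum mean of 5 TPM, scaling by medians of ratios, 2 groups only, the mouse number as a replicate block, voom on recovered reads and each library left out. Some genes that the rule names are not reported here.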

Additional observations from a re-analysis of the deposited data

Results flagged for a closer look

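Among 4 mice of a group, a highest or lowest value was looked for whose gap to the nearest mouse exceeded Dixon's 95% critical share of the whole range of the group. Of 16 groups judged, 3 passed. The critical share lets about 1 in 20 groups pass by chance if values are normal and groups independent. Here Rgs16, Gm28513 and their ratio come from the same mice and go together, so the 3 are not read against that rate. Rgs16 in vehicle HP was one of those that passed, with 31.24 TPM in mouse 4 against 6.79 to 10.1 TPM in the others. Rgs16 in G108 SP was another, with 7.004 TPM in mouse 1 against 0.874 to 1.65 TPM. The last was the ratio of the antisense pair in G108 SP, with 37.5 reads of Gm28513 per 100 reads of Rgs16 in mouse 3 against 21.3 to 23.8, from 30 and 80 reads.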

How the results depend on the processing

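The 6 diet comparisons of Rgs16, Gm28513 and Serpina4-ps1 kept their direction and stayed uncalled in all 138 refits, with log2 differences from -2.14 to -0.51 and limma adjusted p from 0.0724 to 0.99. Of 138 refits of the falls with G108, 131 moved by less than the spread between mice and all stayed negative. With a pseudocount of 0.1 the fall on HP was -4.17 for Rgs16 and -4.55 for Gm28513, and the difference between the falls of Gm28513 was -1.07. With voom on recovered reads the falls on SP were -4.59 for Rgs16, -4.37 for Gm28513 and -4.35 for Serpina4-ps1, and those on HP were -4.50 for Rgs16 and -4.82 for Gm28513. By construction a smaller pseudocount gives low values more weight, and the cause of the change with voom was not tested.

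Counts of listed genes called depended most on scaling. On SP, median-of-ratios scaling and voom gave 0 and 0 calls for the RGS family, 0 and 0 for G protein subunits, 2 and 2 for carbohydrate response, 1 and 1 for the clock, 0 and 0 for neighbours of Rgs16 and 1 and 2 for neighbours of Serpina4-ps1. Without a filter the RGS family had 2 calls, and at a mean TPM of at least 5 it had 0, the clock 7 and neighbours of Rgs16 1. The fit of only 2 groups gave 4 calls among neighbours of Rgs16. On HP, the clock had 0 calls without a filter, after scaling and with voom, and neighbours of Serpina4-ps1 had 0 without a filter. Leaving out 1 library gave 6 to 12 carbohydrate response genes and 1 to 5 neighbours of Rgs16 on SP, and on HP 0 to 2 clock genes and 0 to 1 neighbours of Serpina4-ps1. The lowest carbohydrate count was without mouse 3 of G108 SP or mouse 4 of vehicle SP. Neighbours of Rgs16 had 5 calls without mouse 1 of vehicle HP, 4 without mouse 2 or 3 of vehicle SP or mouse 1 of G108 SP, and 1 without mouse 1 or 4 of vehicle SP or mouse 3 or 4 of G108 SP. The clock had 2 calls on HP without mouse 2 of vehicle HP or mouse 3 of G108 SP. Except for the scalings, the cause of these changes was not tested.

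The mouse number as a replicate block gave 1 call among neighbours of Rgs16 on SP and 0 among neighbours of Serpina4-ps1 on HP. It took the calls over all genes on HP from 132 to 71. Other refits moved these calls more. There were 0 without mouse 4 of vehicle HP and 7 without mouse 3 of that group. Without mouse 3 or 4 of G108 HP there were 32 and 29, without a filter 37, and without mouse 4 of vehicle SP 209. Deviations of mice with the same number, on unscaled TPM, correlated from -0.575 to 0.527 between groups. These values show no steady pairing by number, and with 4 mice a group they cannot exclude one. The precision of Gm28513 in G108 HP is limited by 3 to 11 reads a library, and 4 mice a group leave intervals of about 2 log2 units.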
